A study of Mus musculus with 48 samples.

Results

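The tuft cell genes examined here were *Dclk1*, *Trpm5*, *Pou2f3*, *Il25*, *Sh2d6*, *Alox5*, *Ptgs1*, *Gfi1b* and *Avil*, the 9 rows of the colon count table, out of 55401, whose Ensembl identifiers carry these symbols in GENCODE vM21. Tuft cells are rare chemosensory cells of the intestinal epithelium. They sense luminal metabolites through a taste-type cascade that ends in the TRPM5 channel, and they release IL-25, acetylcholine and lipid mediators. In a type 2 response, IL-25 activates innate lymphoid cells, whose IL-13 acts back on the epithelium to expand tuft and goblet cells. Several of the 9 genes are also expressed by other cells of the gut wall: *Dclk1* and *Avil* by neurons, *Alox5* by leukocytes, *Ptgs1* by many cell types and *Gfi1b* by blood lineages.

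Colon tissue came from 48 adult male mice on a C57BL/6J background that were killed on day 2 after the light was turned off for good, at CT1, CT5, CT9, CT13, CT17 or CT21 (circadian time in hours), with 4 mice of each genotype at each time. Bmal1IEC-/- mice carried floxed *Bmal1* alleles and a Villin-driven Cre, which deletes the gene in epithelial cells of the intestine, and control littermates carried the same floxed alleles without Cre. All mice were kept alone with a running wheel and had free access to chow. Whole colon was sequenced, so the gene stayed intact in muscle, stroma, nerves and immune cells, and in bulk tissue fewer tuft cells and less RNA per tuft cell cannot be told apart. Between 3144997 and 4785844 reads per mouse fell on genes. *Arntl*, the listed name of *Bmal1*, did not pass the test for genotype (log2 fold change 0.32, SE 0.17, adjusted p = 0.241), with reads taken over all its exons and all cells. Its rhythm did differ between genotypes (test of genotype by a 24-h cosine and sine, adjusted p = 5.05e-13). The level of its target *Nr1d1* was lower in Bmal1IEC-/- mice (log2 fold change -1.48, SE 0.12, adjusted p = 2.39e-13). These p-values, like all those on genotype below, come from the quasi-likelihood test of edgeR and are adjusted by Benjamini-Hochberg over all genes tested. They measure the spread between mice. Tests used 46 mice (24 control and 22 Bmal1IEC-/-), the set whose size factors the study's rhythm table carries, which leaves out replicates SV384 and SV385 of Bmal1IEC-/- at CT1. These mice had the lowest scaling factors of the series (0.95 and 0.871) and are given wherever they change a result.

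The 9 genes lie on 7 chromosomes of GRCm38, the build of the count table. *Trpm5* (ENSMUSG00000009246) is at chr7:143069153-143094642 on the minus strand, *Sh2d6* (ENSMUSG00000052631) at chr6:72513641-72521707 on the minus strand, and *Alox5* (ENSMUSG00000025701) at chr6:116410077-116461178, also on the minus strand. *Pou2f3* (ENSMUSG00000032015) is at chr9:43123939-43210369 on the minus strand and *Gfi1b* (ENSMUSG00000026815) at chr2:28609450-28621982 on the minus strand. *Ptgs1* (ENSMUSG00000047250) is at chr2:36230426-36252272, *Il25* (ENSMUSG00000040770) at chr14:54932695-54935837, *Avil* (ENSMUSG00000025432) at chr10:127000709-127020994 and *Dclk1* (ENSMUSG00000027797) at chr3:55242364-55539068, all on the plus strand. Exons of 4 of them share bases with genes on the other strand: 220 bases of *Trpm5* with *Tssc4*, 165 of *Avil* with *Tsfm*, 148 of *Ptgs1* with *Gm43621*, and 87 and 27 of *Dclk1* with *Gm42609* and *Gm21954*. The libraries were stranded and reads that overlapped more than one feature were not counted, but the strand setting of the counting is not given in the sources used here, so whether reads from these stretches were counted is not known.

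The sequences upstream of the 4 genes that were called rhythmic in control mice are shown first, because the clock factors, the tuft cell factor POU2F3 and the REV-ERB and ROR receptors act through short DNA words. RefSeq promoter windows of 300 bases (250 before and 50 after a gene start, GRCm38.p6) were at hand for 7 of the 9 genes, with 8 starts, since *Dclk1* has a pair of them. Each window was searched on both strands for the E-box CACGTG, the octamer ATGCAAAT and the hexamer site AGGTCA, each also as its reverse complement, and no matches overlapped. No window of these 7 genes held the E-box or the octamer, which 7.15% and 1.74% of all 32851 windows hold. *Pou2f3* and *Il25* had no window and were not searched. One window, that of the upstream start of *Dclk1*, held AGGTCA, which 16.3% of all windows hold, and the match begins 105 bases before the start. The 250 bases before each start are printed 5′ to 3′ on the strand of the gene, with the match in capitals. They are chr2:36230176-36230425 (plus strand) for *Ptgs1*, chr6:72520037-72520286 (minus strand) for *Sh2d6*, chr7:143094643-143094892 (minus strand) for *Trpm5* and chr3:55242114-55242363 (plus strand) for *Dclk1*. None overlaps an exon of GENCODE vM21, and that of *Sh2d6* lies in an intron of a longer transcript of the same gene. The stretch before the other start of *Dclk1* (chr3:55461478-55461727, plus strand), which held no match, is not printed. A match is a description of the letters and not a binding site.
Ptgs1: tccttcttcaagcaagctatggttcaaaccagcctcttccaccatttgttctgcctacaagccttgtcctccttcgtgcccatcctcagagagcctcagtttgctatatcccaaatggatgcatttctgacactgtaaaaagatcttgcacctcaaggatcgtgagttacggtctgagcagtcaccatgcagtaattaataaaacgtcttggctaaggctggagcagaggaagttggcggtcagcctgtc
Sh2d6: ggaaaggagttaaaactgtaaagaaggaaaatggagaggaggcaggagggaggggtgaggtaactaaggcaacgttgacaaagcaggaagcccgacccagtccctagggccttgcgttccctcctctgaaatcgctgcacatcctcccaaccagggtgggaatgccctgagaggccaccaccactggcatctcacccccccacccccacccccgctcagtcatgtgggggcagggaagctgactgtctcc
Trpm5: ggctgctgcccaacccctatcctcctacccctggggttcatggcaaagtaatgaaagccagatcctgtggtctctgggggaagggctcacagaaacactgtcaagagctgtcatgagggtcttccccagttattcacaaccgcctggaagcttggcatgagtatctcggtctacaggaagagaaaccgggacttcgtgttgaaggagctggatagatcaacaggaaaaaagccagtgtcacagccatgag
Dclk1: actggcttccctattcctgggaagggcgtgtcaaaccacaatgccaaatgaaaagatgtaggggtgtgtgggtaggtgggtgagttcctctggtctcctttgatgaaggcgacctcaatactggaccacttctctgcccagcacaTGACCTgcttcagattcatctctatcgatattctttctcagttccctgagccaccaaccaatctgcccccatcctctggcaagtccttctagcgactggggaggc

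The 9 genes differed widely in level, from a median of 156 reads per mouse to 0. Levels of different genes are compared as CPM (reads per 1000000, TMM-scaled) per kilobase of merged exons, over all 48 mice. *Ptgs1* was highest, with a median of 10.1 CPM per kb (3.98 to 14.8), followed by *Sh2d6* with 8.3 (4 to 17.5), and *Ptgs1* exceeded *Sh2d6* in 29 of 48 mice, so their order did not hold beyond the spread between mice. *Sh2d6* exceeded the next gene, *Avil*, in 48 of 48 mice. *Avil* (median 2.76 CPM per kb), *Dclk1* (2.45) and *Trpm5* (2.08) formed a middle group with overlapping ranges: *Avil* was above *Dclk1* in 33 and *Dclk1* above *Trpm5* in 29 of 48 mice. *Alox5* followed at 1.28 CPM per kb, below *Trpm5* in 44 mice, and *Pou2f3* at 0.692, below *Alox5* in 44 mice. *Gfi1b* (median 0.146 CPM per kb) and *Il25* (median 0) were lowest. The annotated exons of *Dclk1* are the longest of the 9 (15.3 kb), and its level per length depends on how many of them colon uses.

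Depth sets what can be said of each gene. The median count per mouse was 156 for *Ptgs1*, 142 for *Dclk1*, 53 for *Sh2d6*, 52 for *Trpm5*, 35.5 for *Avil* and 20.5 for *Alox5*. *Pou2f3* had a median of 8 reads, at which counting error alone is 35.4% of the value, against 8.02% for *Ptgs1*. *Gfi1b* had 0 to 5 reads per mouse and *Il25* 0 to 3, with no read in 12 and 30 of the 48 mice. A count of 0 allows up to 3 reads, and only 2 mice for *Gfi1b* and 0 for *Il25* rose above that. Neither gene passed the separate filter on low counts (filterByExpr of edgeR), and differences in them were not detectable at this depth.

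**Figure D1:**
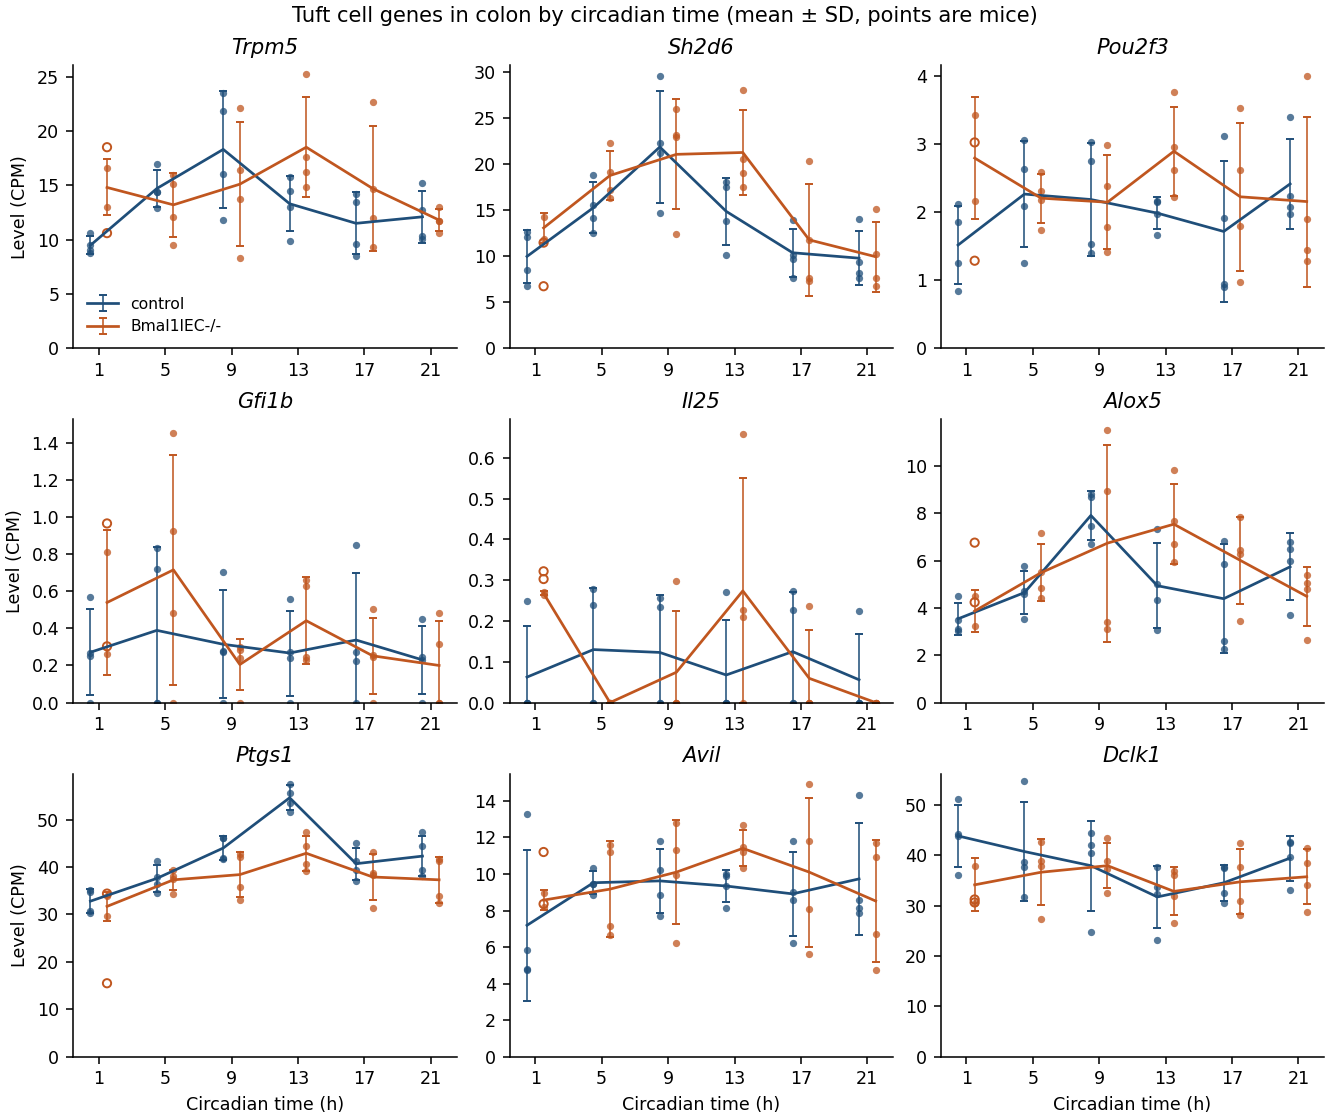
Level (CPM, y axis from 0) of the 9 tuft cell genes against circadian time (h), for control (blue) and Bmal1IEC-/- mice (orange): filled points are the 46 mice tested, open circles SV384 and SV385, lines and bars the mean ± SD of the mice tested. Ptgs1 in control mice rises to 54.6 at CT13 against 42.9 in Bmal1IEC-/- mice. Sh2d6 runs from 9.81 at CT21 to 21.9 at CT9 in control mice. In Bmal1IEC-/- mice it runs from 9.97 at CT21 to 21.1 at CT9 and 21.3 at CT13.

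Between Bmal1IEC-/- and control mice, 1 of the 7 tuft cell genes tested differed. *Ptgs1*, which encodes the constitutive cyclooxygenase COX-1, fell, and the other 6, *Trpm5*, *Sh2d6*, *Pou2f3*, *Alox5*, *Avil* and *Dclk1*, did not pass the test. Over all 14475 genes tested, 11.1% were called and 5.64% were called lower, so 1 of 7 is near the share found among all genes. The median log2 fold change of the 7 was 0.14 with 5 of 7 above 0, and over all genes the median was 0.00 with 51.9% above 0.

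Of the lipid mediator genes, *Ptgs1* ran from 30.4 to 57.6 CPM (median 41.3) in the 24 control mice and from 29.6 to 47.4 CPM (median 38.5) in the 22 Bmal1IEC-/- mice. The ranges overlap over most of their length, and the mean was lower in Bmal1IEC-/- mice at 6 of 6 circadian times. At CT1 it was 31.7 CPM in 2 Bmal1IEC-/- mice against 32.8 CPM in 4 control mice. Adjusted for circadian time, the log2 fold change was -0.15 (SE 0.04, 95% interval -0.24 to -0.07, adjusted p = 0.0121), a level of 0.9 times that of control mice. The difference was largest at CT13, where the 4 control mice had 51.6, 53.4, 55.7 and 57.6 CPM and the 4 Bmal1IEC-/- mice 39.2, 40.7, 44.5 and 47.4 CPM, with no overlap. At CT5 the groups lay on top of each other, with 34.6 to 41.3 CPM in control and 34.3 to 39.3 CPM in Bmal1IEC-/- mice. CT13 was singled out after the values were seen. The edgeR test of genotype by circadian time as a factor did not pass for *Ptgs1* (adjusted p = 0.724).

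The call for *Ptgs1* was lost when circadian time was left out of the model (log2 fold change -0.13, adjusted p = 0.233) and when genes of low counts were kept (-0.15, adjusted p = 0.0853). It held in all 46 fits that left out 1 mouse (-0.17 to -0.14, adjusted p 0.00614 to 0.0228). Replicate SV385, outside the 46, had 15.5 CPM of *Ptgs1*, below every other mouse. Markers of several cell types of the gut wall had log2 fold changes below 0, as *Ptgs1* did: all 5 tested of fibroblasts, all 6 of enteric neurons, all 4 of enteric glia, all 4 of T cells and all 5 of smooth muscle. Their medians were -0.13, -0.16, -0.16, -0.25 and -0.18, and 1, 1, 1, 0 and 2 of them were called. The smooth muscle markers called were *Cnn1* (-0.23, adjusted p = 0.0193) and *Myh11* (-0.16, adjusted p = 0.0426). The summed level of the 5 ran from 3504 to 5606 CPM in control and from 3115 to 5232 CPM in Bmal1IEC-/- mice. The part of these cell types in the fall of *Ptgs1* was not tested.

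*Alox5*, whose product starts leukotriene synthesis, had 2.27 to 8.8 CPM (median 4.88) in control and 2.66 to 11.5 CPM (median 5.46) in Bmal1IEC-/- mice. The log2 fold change was 0.14 (SE 0.14, 95% interval -0.14 to 0.43, adjusted p = 0.593), an interval of 0.906 to 1.35 times the level of control mice. Mast cells and myeloid cells also use this enzyme. Of 6 mast cell genes, *Cpa3*, *Fcer1a*, *Mcpt1* and *Mcpt2* had a median of 0 reads, *Tpsb2* had medians of 0.585 CPM in control and 0.262 CPM in Bmal1IEC-/- mice, and *Kit*, which the pacemaker cells of the gut wall also express, had 203 and 178 CPM. Of these *Kit* was tested for genotype and not called, and of 5 myeloid markers tested 1 was called, *Cd14*.

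Neither the sensing nor the signalling gene passed the test. *Trpm5*, the cation channel that depolarises tuft cells, had 8.49 to 23.5 CPM (median 12.9) in control and 8.35 to 25.2 CPM (median 14.2) in Bmal1IEC-/- mice, with a log2 fold change of 0.14 (SE 0.11, interval -0.08 to 0.35, adjusted p = 0.463) and a higher mean in Bmal1IEC-/- mice at 3 of 6 times. *Sh2d6*, an SH2 domain protein enriched in tuft cells, had 6.81 to 29.6 CPM (median 13.3) against 6.77 to 28.1 CPM (median 16.8). Its mean was higher in Bmal1IEC-/- mice at 5 of 6 times. The log2 fold change was 0.22 (SE 0.11, interval -0.0025 to 0.45, adjusted p = 0.212), the smallest adjusted p after that of *Ptgs1*.

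Of the transcription factors, *Pou2f3*, without which tuft cells do not form, had 3 to 15 reads per mouse in control and 4 to 18 in Bmal1IEC-/- mice, that is 0.851 to 3.4 and 0.981 to 4 CPM. Its log2 fold change of 0.24 had a wide interval (SE 0.16, -0.08 to 0.56, adjusted p = 0.372), which covers levels from 0.947 to 1.47 times those of control mice. *Gfi1b*, a zinc finger repressor of tuft cells and of megakaryocytes, had 28 reads over the 24 control and 33 over the 22 Bmal1IEC-/- mice. Of 5 platelet genes, *Gp9* and *Gp1bb* had a median of 0 reads and *Ppbp* was near 0 (0.275 CPM in control and 0.277 CPM in Bmal1IEC-/- mice), whereas *Pf4* (7.47 and 6.8 CPM) and *Itga2b* (3.57 and 3.84 CPM) were read in every mouse and did not pass the test for genotype. Their part in the reads of *Gfi1b* was not tested. *Il25*, the cytokine of the circuit, had 9 reads over the control mice and 9 over the Bmal1IEC-/- mice, and 15 mice of each genotype had none.

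The structural genes did not pass the test either. *Avil* encodes advillin, an actin-binding protein of the tuft cell brush, and had 4.75 to 14.3 CPM (median 8.94) in control and 4.75 to 14.9 CPM (median 10.6) in Bmal1IEC-/- mice (log2 fold change 0.09, SE 0.11, interval -0.14 to 0.31, adjusted p = 0.707). *Dclk1*, a microtubule-associated kinase and the usual histological marker, had 23.2 to 54.6 CPM (median 37.7) against 26.5 to 43.3 CPM (median 37.1). Its log2 fold change of -0.08 had a narrow interval (SE 0.07, -0.22 to 0.06, adjusted p = 0.539), which runs from 0.86 to 1.04 times the control level.

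**Figure D2:**
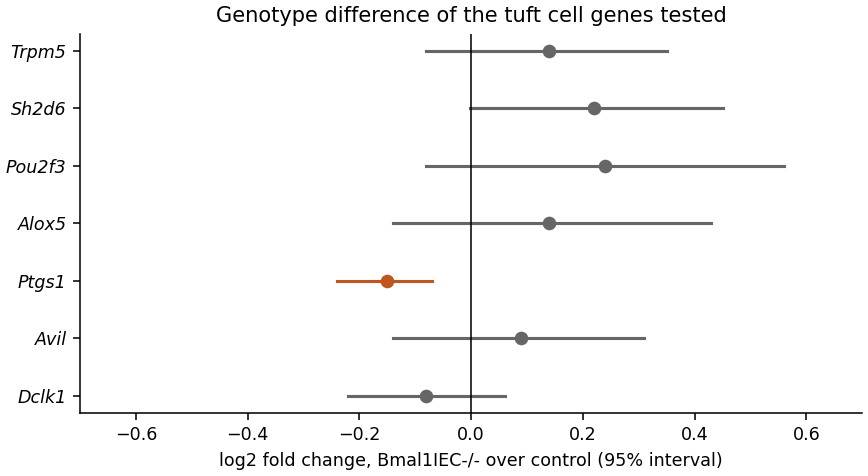
log2 fold change of Bmal1IEC-/- over control mice (x axis) with its 95% interval for the 7 tuft cell genes that passed the filter on low counts, with 24 control and 22 Bmal1IEC-/- mice. The interval of Ptgs1 (-0.15) lies below 0, and the intervals of the other 6 include 0.

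In control mice 4 of the 9 genes were called rhythmic by JTK_cycle over a period of 24 h: *Ptgs1*, *Sh2d6*, *Trpm5* and *Dclk1*. Over all 32471 genes with a count 24.1% were called, and over the 14475 genes that passed the filter on low counts 50.0% were. The 4 of the 7 members that passed this filter are a share near that of all genes that did. Genes were not matched by level for this comparison. Timing differed within the set. *Sh2d6* and *Trpm5* were highest at CT9, late in the circadian day, *Ptgs1* at CT13, early in the night, and *Dclk1* at CT1. The swing is given as the peak-to-trough difference of a cosine fitted to log2 CPM.

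*Sh2d6* had the widest swing among the genes tested. In control mice it had 14.7, 21.2, 22.3 and 29.6 CPM at CT9 and 7.63, 8.16, 9.35 and 14.1 CPM at CT21, so that the lowest mouse at CT9 was above the highest at CT21. The mean fell from 21.9 ± 6.1 CPM (SD, n = 4) to 9.81 ± 2.95 CPM (SD, n = 4), a ratio of 2.24. The fitted swing was 1.15 on the log2 scale (95% interval 0.71 to 1.59) with the peak at 9 h (SE 0.702 h), and JTK_cycle gave an adjusted p of 0.000441 (exact null). With each control mouse left out it stayed between 7.95e-05 and 0.00175.

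*Ptgs1* had the smallest p in control mice (JTK_cycle adjusted p = 3.37e-05, exact null). Its mean rose from 32.8 ± 2.55 CPM (SD, n = 4) at CT1, with 30.4, 30.8, 34.7 and 35.2 CPM, to 54.6 ± 2.61 CPM (SD, n = 4) at CT13. The 4 mice at CT13 were above all other 20 control mice, the next of which had 47.3 CPM. The swing was 0.55 (interval 0.36 to 0.74) and peaked at 13.2 h (SE 0.624 h).

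The other calls in control mice depended on single mice. *Trpm5* (adjusted p = 0.0358, exact null) rose from 8.8, 9.02, 9.5 and 10.6 CPM at CT1 to 11.8, 16, 21.8 and 23.5 CPM at CT9, without overlap. Its swing was 0.66 (interval 0.27 to 1.05). The call was lost without replicates SV420 or SV415 (0.109 each), SV412 (0.0931), SV396 (0.0794), SV397 (0.0674), and SV442 or SV443 (0.0571 each). *Dclk1* (adjusted p = 0.0423, exact null) ran the other way, from 36, 43.8, 44.2 and 51.2 CPM at CT1 to 23.2, 32.3, 33.6 and 37.7 CPM at CT13, which overlap. Its swing was 0.42 (interval 0.12 to 0.73) with the peak at 1.67 h (SE 1.32 h), and it was not called when equal values of the cosine were kept as ties (0.0583). Leaving out 13 of the 24 control mice in turn ended this call, with 0.127 for SV397, 0.109 for SV454, 0.0931 for SV455 and SV468, 0.0794 for SV396, 0.0674 for SV398, SV417, SV438 and SV447, and 0.0571 for SV424, SV433, SV441 and SV453. With Benjamini-Hochberg adjustment over all genes, *Ptgs1* and *Sh2d6* were called and *Trpm5* (0.161) and *Dclk1* (0.183) were not.

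No rhythm was called for the remaining 5 genes in control mice. *Alox5* had its highest mean at CT9 (7.91 ± 1.02 CPM, SD, n = 4) and its lowest at CT1 (3.54 ± 0.676 CPM, SD, n = 4), with an adjusted p of 0.61 (JTK_cycle, exact null). *Pou2f3*, *Avil*, *Gfi1b* and *Il25* each had an adjusted p of 1. The swing of *Avil* was 0.31 (interval -0.16 to 0.78) and that of *Pou2f3* 0.19 (interval -0.47 to 0.85), so swings as wide as that of *Ptgs1* lie within both intervals. Epithelial markers were themselves rhythmic: 5 of 6 were called in control and 3 of 6 in Bmal1IEC-/- mice, against 50.0% and 29.3% of all genes that passed the filter on low counts, and their part in the rhythms of the tuft cell genes was not tested.

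In Bmal1IEC-/- mice the rhythm of *Sh2d6* was called (JTK_cycle adjusted p = 0.00123, exact null), and none of the other 8 genes was. Over all genes with a count 14.2% were called, and 29.3% of those that passed the filter on low counts, against 1 of 9 and 1 of 7 members. *Sh2d6* had 12.4, 23, 23.2 and 26 CPM at CT9, 17.6, 19.1, 20.6 and 28.1 CPM at CT13, and 6.77, 7.61, 10.3 and 15.2 CPM at CT21. The mice at CT13 were all above those at CT21. The swing was 1.24 (interval 0.69 to 1.78) and the peak at 8.93 h (SE 0.846 h). With each Bmal1IEC-/- mouse left out the adjusted p stayed between 0.00016 and 0.00463.

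*Ptgs1* and *Alox5* were near the threshold in Bmal1IEC-/- mice, with an adjusted p of 0.0798 each (JTK_cycle, exact null). *Ptgs1* again had its highest mean at CT13 (42.9 ± 3.68 CPM, SD, n = 4) and its lowest at CT1 (31.7 ± 3.04 CPM, SD, n = 2). It was called over all 24 Bmal1IEC-/- mice (0.0178), in which SV385 adds the lowest value at CT1. It was also called without SV481 (0.0197) or without SV410, SV444 or SV470 (0.0304 each). *Alox5* rose from 3.87 ± 0.875 CPM (SD, n = 2) at CT1 to 7.54 ± 1.7 CPM (SD, n = 4) at CT13 and was called without SV400 (0.0197), SV418 (0.0246) or SV399 (0.0375). The adjusted p was 0.421 for *Trpm5* and 1 for *Dclk1* (JTK_cycle, exact null).

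**Figure D3:**
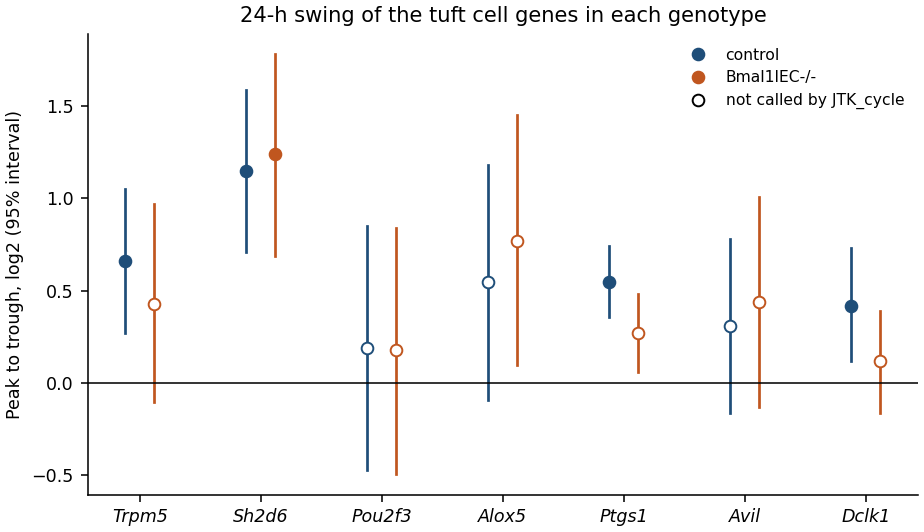
Peak-to-trough difference of a 24-h cosine fitted to log2 CPM (y axis, with 95% interval) for 7 tuft cell genes in 24 control (blue) and 22 Bmal1IEC-/- mice (orange); filled points were called by JTK_cycle. Sh2d6 swings by 1.15 and 1.24 in the 2 genotypes, and Ptgs1 by 0.55 and 0.27.

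A call in one genotype and not in the other does not show a changed rhythm, so the difference itself was tested, and it passed for none of the 7 genes. The test was an edgeR quasi-likelihood F test of genotype by a 24-h cosine and sine, which called 0.940% of the 14475 genes. *Ptgs1* had the smallest p among the tuft cell genes (adjusted p = 0.642, unadjusted 0.13). Its swing was 0.28 smaller in Bmal1IEC-/- mice in the least-squares fits (Bmal1IEC-/- minus control -0.28, 95% interval -0.55 to -0.0032), an interval that ends next to 0. The swing of *Dclk1* differed by -0.31 (interval -0.71 to 0.09, adjusted p = 0.746) and that of *Trpm5* by -0.22 (interval -0.86 to 0.42, adjusted p = 0.802).

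*Sh2d6* had the largest p among them (adjusted p = 0.994, unadjusted 0.971). Its swing differed by 0.09 on the log2 scale (interval -0.59 to 0.76) and its peak by -0.0657 h (interval -2.29 to 2.16 h), Bmal1IEC-/- minus control. These intervals bound the change and do not show that the rhythms were alike. *Avil*, *Pou2f3* and *Alox5* did not pass either, with adjusted p of 0.972, 0.986 and 0.926. Their swings differed by 0.13 (interval -0.58 to 0.84), -0.01 (interval -0.92 to 0.89) and 0.23 (interval -0.67 to 1.13). At an unadjusted p under 0.05 the count was 0 of 7 in edgeR, and in DESeq2 0 of the 6 genes other than *Pou2f3*, which had no adjusted p there.

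Mice of the same genotype and time still differed in their tuft cell genes, and part of that variation was shared. The 7 genes with a mean of at least 5 reads were correlated over 46 mice after the mean of each of the 12 groups had been removed, with permutation of mice within groups and Benjamini-Hochberg adjustment over the 21 pairs. *Trpm5* and *Sh2d6* varied together most closely (Pearson r = 0.685, permutation p = 2e-05, adjusted p = 0.00042, and Spearman rho = 0.647, permutation p = 5e-05, adjusted p = 0.00105). Without the 2 mice farthest from the median of *Trpm5*, r was 0.59. It was 0.596 in control and 0.748 in Bmal1IEC-/- mice.

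*Dclk1* followed *Sh2d6* (r = 0.526, permutation p = 0.00098, adjusted p = 0.0103, and rho = 0.564, permutation p = 0.00045, adjusted p = 0.00472), with r = 0.566 without 2 extreme mice, 0.432 in control and 0.644 in Bmal1IEC-/- mice. It also followed *Trpm5* (r = 0.451, permutation p = 0.00542, adjusted p = 0.0341, and rho = 0.434, permutation p = 0.0079, adjusted p = 0.0429), with r = 0.432 without 2 extreme mice. *Avil* correlated with *Sh2d6* (r = 0.497, permutation p = 0.00882, adjusted p = 0.037, and rho = 0.437, permutation p = 0.0136, adjusted p = 0.0571) and with *Trpm5* (r = 0.438, permutation p = 0.0065, adjusted p = 0.0341, and rho = 0.433, permutation p = 0.00817, adjusted p = 0.0429), with r = 0.394 and 0.314 without 2 extreme mice.

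The pairs of *Sh2d6* with *Trpm5* and with *Dclk1* passed with any single mouse left out (highest adjusted p 0.00294 and 0.0385, from permutations). The other 3 did not. *Dclk1* with *Trpm5* was lost without any of 8 mice (SV401, SV402, SV416, SV433, SV437, SV439, SV454 and SV481), with an adjusted p of up to 0.115 without SV401. *Trpm5* with *Avil* was lost without these or SV400 (up to 0.118 without SV400). *Sh2d6* with *Avil* was lost without any of these 9 or without SV399, SV444, SV468, SV469 or SV471 (up to 0.118 without SV400). Of the pairs not called, *Dclk1* with *Pou2f3* passed without SV447 (adjusted p = 0.0469) and *Pou2f3* with *Alox5* without SV453 (adjusted p = 0.0421), both from permutations.

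*Ptgs1*, *Alox5* and *Pou2f3* held none of the called pairs. The r of *Ptgs1* with the other 6 genes ran from -0.118 with *Sh2d6* to 0.153 with *Trpm5*, and that of *Alox5* from 0.0455 with *Ptgs1* to 0.325 with *Trpm5*, and no pair of either passed the test. *Pou2f3* had r between 0.079 with *Ptgs1* and 0.367 with *Sh2d6* (adjusted p = 0.161 from permutations) at its low counts. The members were also set against the summed level of marker genes of 12 other cell types of the colon, which gave 84 relations. One passed the adjustment over these: *Alox5* rose and fell with the fibroblast markers (r = 0.612, permutation p = 0.00055, adjusted p = 0.0462, and rho = 0.62, permutation p = 0.00021, adjusted p = 0.0176), with r = 0.541 without 2 extreme mice. With B cell markers *Sh2d6* had r = 0.453 (permutation p = 0.00834, adjusted p = 0.239, and rho = 0.528, permutation p = 0.00139, adjusted p = 0.0584). With epithelial markers r was 0.197 for *Trpm5*, 0.172 for *Sh2d6*, 0.102 for *Avil* and -0.31 for *Dclk1* (adjusted p 0.76, 0.76, 0.862 and 0.533 from permutations). *Ptgs1* had r = 0.388 with smooth muscle markers (permutation p = 0.0381, adjusted p = 0.356).

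**Figure D4:**
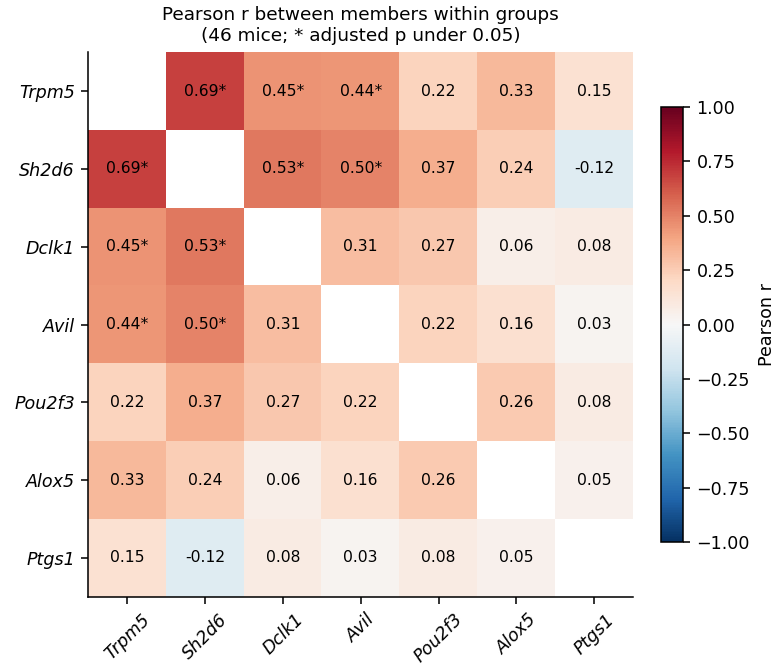
Pearson r between 7 tuft cell genes over 46 mice after removal of the group means; colour runs from -1 (blue) to 1 (red) and asterisks mark an adjusted p under 0.05. Trpm5, Sh2d6, Dclk1 and Avil hold all 5 marked pairs, and Ptgs1, Alox5 and Pou2f3 hold none.

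Among all other genes, those most like the tuft cell genes included known tuft cell genes and some products of goblet and other epithelial cells. Likeness was the Pearson r over 46 mice with the mean of the 7 standardized residuals, which share library and depth, and no p is given since the mean is built from the members. Over 14468 genes the median r was 0.00408, with 5% of genes below -0.354 and 5% above 0.341. Both tails were filled: 6 genes lay between -0.70 and -0.65 and 8 between 0.65 and 0.70. Among the 15 highest were *Retnlb* (0.689), *Lgr5* (0.684), *Clca1* (0.681), *Gm45250* (0.676), *Skap2* (0.67), *Spib* (0.667), *Sprr2a2* (0.655), *Jun* (0.646), *Gsdmcl2* (0.64), *St6gal1* (0.633), *Gsdmc2* (0.624), *Rgs4* (0.621), *Hao2* (0.619) and *Pik3r5* (0.617). Spearman's rho of the 15 ran from 0.493 for *Skap2* to 0.731 for *Gm45250*, and r without the 2 extreme mice from 0.546 for *Clca1* to 0.699 for *Gm45250*. *Gsdmc2*, *Gsdmcl2* and *Sprr2a2* belong to families of near-identical copies, among which reads may be split.

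The adaptor SKAP2 and the ETS factor SPIB are known from tuft cells, as they are from immune cells. RETNLB and CLCA1 are secreted by goblet cells, LGR5 marks stem cells and *Gsdmc2* and *Gsdmcl2* encode gasdermins of the epithelium. Of the 6 goblet cell markers, only *Clca1* was among the first 100 genes, and their median r was 0.0201. *Retnlb* had r = 0.522 in control and 0.786 in Bmal1IEC-/- mice, and *Clca1* 0.505 and 0.781. Over all 48 mice *Retnlb* moved from place 1 to place 18 and *Clca1* from 4 to 66. Of the 2 mice this adds, SV385 had 273 CPM of *Retnlb* and 3402 CPM of *Clca1*, above every other mouse, and 15.5 CPM of *Ptgs1*, below every other mouse, while its other 6 members in the mean were inside the range of the 46. The part of each mouse in the move was not tested. *Lgr5* and *Spib* had places 1 and 5 over 48 mice. With any 1 member left out of the mean, *Retnlb* stayed within the first 6 and *Lgr5* within the first 8.

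Part of a list of 32 other genes known from tuft cells varied with the members. It had 23 genes above the filter on low counts, with a median r of 0.398 against 0.00408 over all genes. Of these 23, 3 were among the first 15 and 9 among the first 100 of 14468 genes. Below *Skap2* and *Spib* came *Plcb2* (0.616, place 16), the phospholipase of the taste cascade, *Rgs13* (0.575), *Lrmp* (0.56), *Sh2d7* (0.524), *Siglecf* (0.521) and *Kctd12* (0.495). The cascade's G protein gene *Gnat3* had r = 0.448 at medians of 1.92 CPM in control and 2.14 CPM in Bmal1IEC-/- mice. *Cd24a* (-0.3), *Tas1r3* (-0.00599), *Ptpn6* (0.0163), *Krt23* (0.0519), *Fyb* (0.169), *Chat* (0.176), *Matk* (0.179) and *Il17rb* (0.298) were below the level that 5% of all genes exceed. Among the marker lists of other cell types the median r ran from -0.145 for platelets to 0.314 for the 2 B cell markers ranked, with 0.224 for fibroblasts, 0.156 for myeloid cells, 0.0201 for goblet cells and -0.0767 for the epithelium. The part of these cells in the likeness was not tested.

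**Figure D5:**
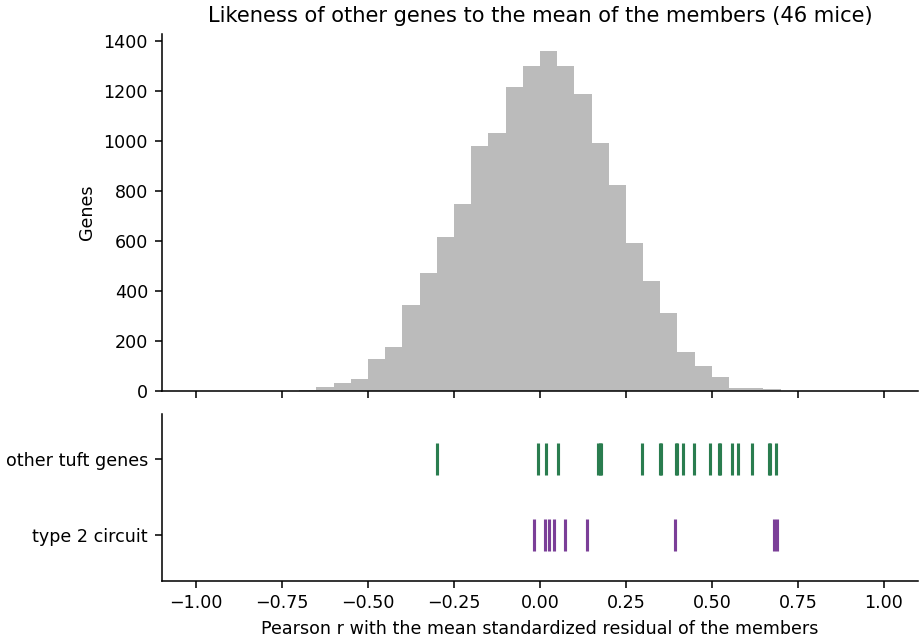
Number of genes (upper y axis) by Pearson r with the mean standardized residual of 7 tuft cell genes over 46 mice (x axis), with the 23 other tuft cell genes (green) and 9 genes of the type 2 circuit (purple) marked below. The other tuft cell genes have a median r of 0.398, and Retnlb and Clca1 lie at 0.689 and 0.681.

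Of the 23 other tuft cell genes tested for genotype, 1 fell, 0 rose and 22 did not pass, against 11.1% called over all genes, with a median log2 fold change of 0.00 and 12 of 23 above 0. The one that fell was *Cd24a*, a surface protein of many epithelial cells, with a median of 964 CPM in control and 688 CPM in Bmal1IEC-/- mice (log2 fold change -0.42, SE 0.04, adjusted p = 1.89e-10). The next by p were *Hpgds*, the prostaglandin D synthase (-0.24, SE 0.09, adjusted p = 0.0631), *Matk* (0.29, SE 0.11, adjusted p = 0.0758), *Sh2d7* (0.30, SE 0.13, adjusted p = 0.124) and *Ptpn6* (0.11, SE 0.05, adjusted p = 0.209). In control mice 6 of 32 were called rhythmic by JTK_cycle (among them *Hpgds*, *Inpp5d*, *Spib*, *Rgs13* and *Vav1*), against 24.1% of all genes with a count. In Bmal1IEC-/- mice 5 of 32 were (among them *Hpgds*, *Spib*, *Skap2* and *Fyb*), against 14.2%. All of these calls fell among the 23 genes that passed the filter on low counts. Of all genes that passed it, 50.0% were called in control and 29.3% in Bmal1IEC-/- mice. No change of rhythm was called.

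The type 2 circuit around tuft cells was read through 14 genes, of which 9 were tested. *Il13* and *Il5*, cytokines of innate lymphoid cells, had a median of 0 reads, like *Il25*, and the type 2 cytokine gene *Il4* had medians of 1.13 CPM in control and 1.4 CPM in Bmal1IEC-/- mice, too low to be tested. The effectors *Retnlb* (median 1.8 CPM in control and 18 CPM in Bmal1IEC-/- mice, log2 fold change 4.19, SE 0.41, adjusted p = 4.84e-11) and *Areg* (0.61, SE 0.20, adjusted p = 0.0345) rose and *Clca1* fell (-0.62, SE 0.10, adjusted p = 9.82e-06), while 6 of 9 did not pass, among them the receptor gene *Il4ra* (0.13, SE 0.05, adjusted p = 0.0904) and the alarmin *Il33* (-0.21, SE 0.10, adjusted p = 0.195). In control mice 5 of the 14 were called rhythmic (*Il4ra*, *Stat6*, *Il33*, *Il1rl1* and *Retnlb*) and in Bmal1IEC-/- mice 0 of 14, against 24.1% and 14.2% of all genes with a count. These 5 were among the 9 that passed the filter on low counts. Of all genes that passed it, 50.0% were called in control and 29.3% in Bmal1IEC-/- mice. A change of rhythm was called for 0 of the 9 tested. The median r with the members was 0.0734 for this list.

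Markers of several other cell types differed between genotypes, some by more than *Ptgs1*, with 11.1% of all genes called. Of the genes tested, 3 of 6 epithelial markers rose (*Cdx2*, *Krt8* and *Cdh1*) and 1 fell (*Epcam*), 2 of 6 goblet cell markers rose (*Zg16* by 0.71 on the log2 scale, and *Fcgbp*) and 1 fell (*Clca1*, -0.62), and 1 of 6 enteroendocrine (*Chgb*, 0.38) and 1 of 5 myeloid markers (*Cd14*) rose. Of markers of enteric neurons 1 of 6 fell (*Ret*), of enteric glia 1 of 4 (*S100b*), of smooth muscle 2 of 5 and of fibroblasts 1 of 5 (*Dcn*). None of the markers tested of mast cells (1), platelets (2), B cells (2) and T cells (4) passed. Their part in the results on the tuft cell genes was not tested beyond the correlations given.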

How the data were processed

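The authors trimmed reads with Trimmomatic 0.39, aligned them to mm10 with STAR 2.7.5c and counted exon reads per gene with featureCounts 1.4.6. The deposited values are these raw counts, without normalization, and the annotation release and strand setting of the counting are not given in the sources used here. Symbols were matched to GENCODE vM21 by Ensembl identifier without version (55141 of 55401 genes), and 0 columns belonged to no sample.

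Genotype (with circadian time as a factor) and change of rhythm were tested with edgeR 4.0.16 (R 4.3.3, TMM, filterByExpr, quasi-likelihood F test, Benjamini-Hochberg, threshold 0.05), with DESeq2 1.42.0 as an alternative. Rhythms were tested in each genotype with JTK_cycle, written anew in Python 3.11.15, on counts divided by DESeq2 size factors, over genes with at least 1 count. It used a period of 24 h, 12 phases in steps of 2 h and the exact null with Bonferroni adjustment over phases, without adjustment over genes. Correlations used log2 CPM with 0.5 counts added and 100000 permutations. Promoters came from RefSeq (GRCm38.p6).

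Every member is named, together with *Arntl* and *Nr1d1*, the 15 genes most like the members, and of the other lists the genes called and up to 4 more with the smallest p. Other genes were named after their values were seen. One gene that this rule names is not reported here. The members, lists, tests and alternatives were chosen with earlier results of these data known. Replicates are different mice. Intervals and floors cover counting error only where they rest on counts. The steps were tested on simulated data.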

Additional observations from a re-analysis of the deposited data

Results flagged for a closer look

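In 84 comparisons of 1 mouse with the other 3 of its group (7 genes in 12 groups), 3 values stood apart by Dixon's test at 95%, of which chance gives about 1 in 20 comparisons. *Avil* in control replicate SV454 at CT1 was 13.3 CPM against 4.75 to 5.83 CPM in the others, and in control replicate SV433 at CT21 it was 14.3 CPM against 7.87 to 8.57 CPM. *Dclk1* in Bmal1IEC-/- replicate SV480 at CT1 was 37.8 CPM against 30.4 to 31.2 CPM.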

How the results depend on the processing

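The number of tuft cell genes called for genotype (1) was 0 without a filter on low counts, 0 without circadian time in the model and 0 with a fold change over 1.5 required, and 1 over all 48 mice, with DESeq2 size factors, in DESeq2 and without any single mouse. The number of rhythms in control mice (4) was 2 with Benjamini-Hochberg adjustment over all genes and ran from 2 to 4 with 1 mouse left out (2 without SV396 or SV397). In Bmal1IEC-/- mice (1) it was 2 over all 48 mice and 1 to 2 with 1 mouse left out. The change of rhythm was called for 0 genes throughout. The number of correlated pairs (5) ran from 2 to 6 with 1 mouse left out, and no direction was reversed. No paired analysis was possible because each mouse has its own number and no number is shared between groups. Counts of *Pou2f3*, *Gfi1b* and *Il25* limit what could be seen, and the 2 mice at CT1 leave that Bmal1IEC-/- group thin. That equal cosine values be kept as ties, the marker list correlations and the rankings with 1 member left out or over 48 mice were chosen after seeing the data.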
